A study of Mus musculus and Homo sapiens with 33 samples.

Results

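The S100 alarmins and acute-phase genes are 10 genes named by symbol: S100A8, S100A9, S100A4, S100A6, S100A7, S100A10, S100A11, S100P, LCN2 and SAA1. They were chosen with earlier results of these data known. Of the 10 genes, 9 were among the 20347 genes of the authors' deposited H358 comparison, and S100A7 was not analysed here. None of the 10 was among the 2509 rows of the LLC1 table under the same letters in mouse case, so in LLC1 the other S100 genes listed there are described. The series holds 33 total RNA libraries, 3 in each of 11 groups. The groups used here are H358 cells with cEMSY overexpression against H358 cells labelled WT with EV, and LLC1 cells with cEmsy overexpression against LLC1 cells labelled WT with EV. H358 is a human and LLC1 a mouse line, both labelled as non-small cell lung cancer, and cEMSY is the circular RNA under study as an inducer of immunogenic cell death. The labels give no time for the overexpression. Nor do they tie the 3 libraries of a group to 3 cultures, and p-values then cover only the spread among these libraries, possibly a technical one.

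S100 proteins are small calcium-binding proteins with a pair of EF hands. Most act inside the cell on annexins, the cytoskeleton and membrane channels. Several are also released by stressed, activated or dying cells and are then called alarmins: S100A8 and S100A9 form calprotectin, which binds zinc and manganese and signals through TLR4 and RAGE. Acute-phase proteins such as lipocalin-2 (LCN2) and serum amyloid A (SAA1) are secreted under inflammatory cytokines, in the liver and also by epithelia.

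In H358 cells the members did not move together. The calprotectin genes S100A8 and S100A9 rose with cEMSY, LCN2 fell to 0.0809 of its EV level, and the genes of the cytoplasmic S100 proteins S100A4, S100A6, S100A10 and S100A11 fell by smaller amounts. S100P and SAA1 did not pass the test. By the adjusted p-value of the authors' deposited table at 0.05, 7 of the 9 members passed, 2 higher and 5 lower, where 32.4% of all 19154 genes with an adjusted p passed, 15.6% higher and 16.8% lower. The members' median log2 fold change was -0.26, beside 0.03 over all genes with an adjusted p. With a log2 fold change past 1 as well, the rule behind the authors' own significance mark, 3 members passed (S100A8, S100A9 and LCN2), where 9.47% of genes did. EMSY itself, measured per gene and so not separating circular from linear RNA, had a log2 fold change of 3.84 ± 0.07 (SE) per the authors' deposited table.

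**Figure D1:**
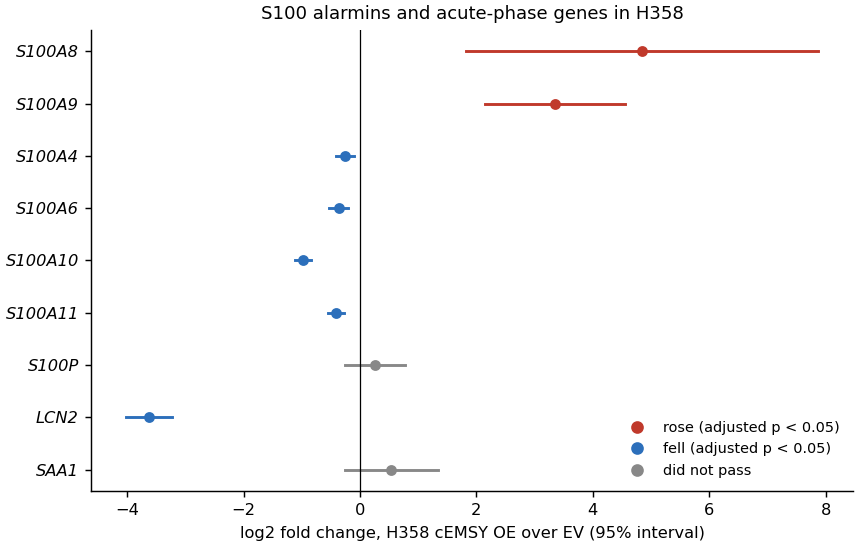
Log2 fold change of the 9 members in H358, cEMSY OE over EV, from the authors' deposited table; points are estimates and bars 95% intervals from the deposited SE. S100A8 and S100A9 lie right of 0 with wide bars, LCN2 far left at -3.63, the 4 cytoplasmic S100 genes left of 0 with narrow bars, and the bars of S100P and SAA1 cross 0.

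For H358 the authors' deposited table gives 1 mean signal over all 6 libraries, a fold change and its SE, and values of single libraries were not analysed here. Where group levels are quoted below, they are what that mean signal and fold change imply if the fold is the ratio of the 2 group means; they carry no SD. The mean signal is not divided by gene length, so levels of different genes are not compared.

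S100A9 (ENSG00000163220.11), the larger calprotectin subunit, rose by 3.36 ± 0.61 on the log2 scale (SE; adjusted p = 4.48e-07) in the authors' deposited table. That is 10.2-fold, with a 95% interval from 4.46-fold to 23.5-fold. Its mean signal of 25.0 implies 45.6 in cEMSY OE libraries and 4.45 in EV libraries. S100A8 (ENSG00000143546.10), its partner subunit, rose by 4.85 ± 1.54 (adjusted p = 0.00717) in the same deposited table by the authors. Its mean signal of 5.49 implies 10.6 in cEMSY OE libraries and 0.368 in EV libraries, or 1.11 summed over the 3 EV libraries. The size of the S100A8 change is therefore loosely fixed: the 95% interval ran from 3.54-fold to 234-fold. Of the 3607 genes with a mean signal under 10 in the authors' deposited table, 4.71% passed as higher, and 15.8% of those from 10 to 100, the second share close to the 15.6% of all genes. With only genes of mean signal 10 or more kept, S100A8 drops out and 6 members pass, 1 higher and 5 lower.

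S100A8 and S100A9 are best known from neutrophils and monocytes. Of 10 markers of those cells, 3 were in the authors' deposited table and 0 passed, with 1 (ELANE) below an unadjusted p of 0.05: CD14, the lipopolysaccharide co-receptor, at a log2 fold change of 0.23 ± 0.29, the integrin gene ITGAM at 0.05 ± 0.49, and the neutrophil elastase gene ELANE at 3.71 ± 1.80 (SE; adjusted p = 0.617, 0.964 and 0.104). Their mean signals were 86.2, 56.5 and 2.60. The other 7, among them the pan-leukocyte gene PTPRC and the neutrophil genes CSF3R and MPO, were not analysed here. Squamous epithelium, which also makes calprotectin, had 5 of 8 markers in the authors' deposited table. The 3 of them with an adjusted p (KRT10, SERPINB4 and TP63) did not pass. Their log2 fold changes were -0.27 ± 0.13, -1.32 ± 0.82 and -0.02 ± 0.42 (SE). Of these 3, KRT10 alone was below an unadjusted p of 0.05. KRT14 and KRT5 had low mean signals and no adjusted p. KRT14 lay above 0, the direction of S100A8 and S100A9, and was also below an unadjusted p of 0.05. KRT5 lay below 0 and was not past that threshold. In bulk RNA, more cells of a type and more RNA per cell cannot be told apart, and the part of other cells in the calprotectin result was not tested.

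LCN2 (ENSG00000148346.12) encodes lipocalin-2, a secreted protein that captures bacterial siderophores and so withholds iron. It fell by 3.63 on the log2 scale (SE 0.20; adjusted p = 4.48e-71), again per the authors' deposited table. Its level with cEMSY was 0.0809 of that with EV, with a 95% interval from 0.0616 to 0.106. The mean signal of 280.0 implies 41.9 in cEMSY OE libraries and 518 in EV libraries. Among the 15547 genes of mean signal 10 or more with an adjusted p, 29 had a lower fold change. Of genes with a mean signal from 100 to 1000, 19.3% passed as lower. Of the LCN2 receptors, SLC22A17 stood at a log2 fold change of 0.28 ± 0.27 and LRP2, at a mean signal of 3.11, at 0.34 ± 1.45 (SE), and neither passed (adjusted p = 0.470 and 0.903) in the authors' deposited table.

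SAA1 (ENSG00000173432.13) encodes serum amyloid A1, an apolipoprotein of high-density lipoprotein during inflammation. With cEMSY its log2 fold change was 0.53 ± 0.41 (SE; adjusted p = 0.349) in the authors' deposited table, and the 95% interval ran from 0.832-fold to 2.52-fold. The near-identical SAA2 stood at 0.82 ± 0.49 (adjusted p = 0.208) in that table of the authors. How reads were shared between the pair is not given in the sources used here, so the split between them is uncertain. SAA1 thus gave an estimate above 0 and LCN2 one below 0, with intervals that do not overlap (-0.27 to 1.34 and -4.02 to -3.24 on the log2 scale).

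The 4 cytoplasmic S100 members had mean signals from 4502 to 10744, and their fold changes were small and closely fixed. S100A10 (ENSG00000197747.9), which binds annexin A2 and brings plasminogen activation and ion channels to the plasma membrane, fell by 0.98 on the log2 scale (SE 0.07; adjusted p = 2.31e-43) in the authors' deposited table. This placed it at 0.508 of its EV level, just short of the log2 fold change of 1 that the authors' significance mark asks for. S100A11 (ENSG00000163191.6), which binds annexin A1 and takes part in membrane repair, fell by 0.41 (SE 0.07; adjusted p = 1.61e-08) in the authors' deposited table. S100A6 (ENSG00000197956.10), or calcyclin, fell by 0.37 (SE 0.08; adjusted p = 6.12e-05), again in the authors' deposited table. S100A4 (ENSG00000196154.12), which binds non-muscle myosin IIA and is known from cell motility and metastasis, fell by 0.26 (SE 0.08; adjusted p = 0.0047) in the table the authors deposited. Levels with cEMSY were thus 0.751 of the EV level for S100A11, 0.776 for S100A6 and 0.837 for S100A4. Passing as lower is common at such signals: 48.7% of the 755 genes with a mean signal of 4000 or more did so, a bound chosen after the members' signals were seen. S100P (ENSG00000163993.7), an epithelial S100 protein and ligand of RAGE, stood at 0.26 ± 0.26 (SE; adjusted p = 0.504) in the authors' deposited table, with an interval from 0.838-fold to 1.71-fold.

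**Figure D2:**
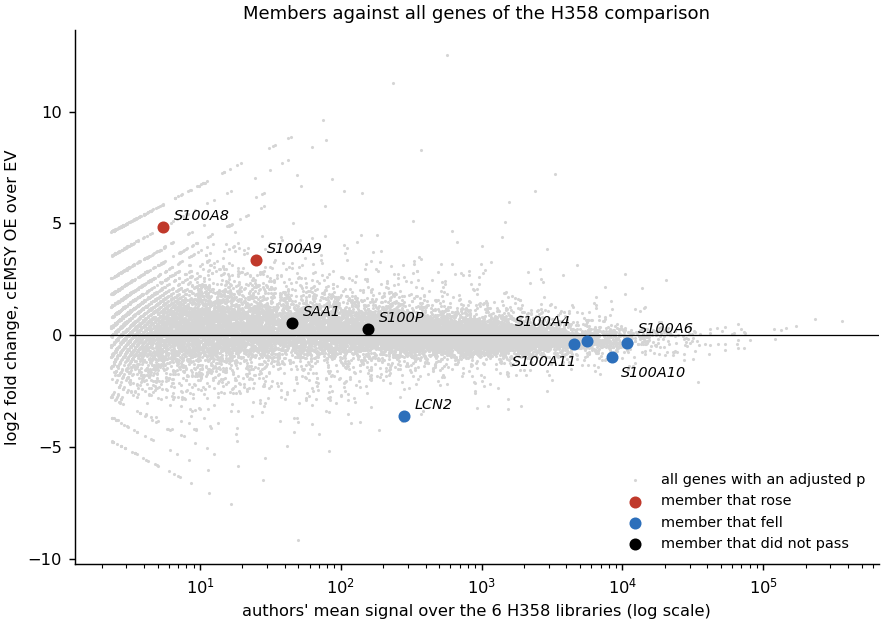
Mean signal over the 6 H358 libraries (x, log scale) against log2 fold change, cEMSY OE over EV (y), for all 19154 genes with an adjusted p in the authors' deposited table (grey) and the 9 members. The calprotectin genes sit at low signals of 5.49 and 25.0 in the upper part of the grey points, and LCN2 in their lower part at 280.0. Among genes of mean signal 10 or more, 57 and 112 had higher fold changes than S100A8 and S100A9. The 4 cytoplasmic S100 genes lie at the right, below 0.

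Beyond the members, 3 further genes of the S100 family fell and 0 rose, also at an unadjusted p of 0.05. Over the whole family, 14 of 20 genes were in the authors' deposited table and 9 passed, 2 higher and 7 lower (64.3%, beside 32.4% of all genes), with a median log2 fold change of -0.30. Of those 9, 6 are members; without the members 3 of 7 passed (42.9%). The other 3 that fell were S100A2, S100A3 and S100A16. S100A3, known from the hair cuticle, fell by 1.23 on the log2 scale (SE 0.15; adjusted p = 2.85e-15) at a mean signal of 419 in the authors' deposited table. S100A2, a p53- and p63-regulated protein of squamous and basal epithelium, fell by 1.31 (SE 0.44; adjusted p = 0.0128) at a mean signal of 39.4, and missed the stricter threshold of 0.01. S100A16 fell by 0.34 (SE 0.08; adjusted p = 0.000145) in the authors' deposited table. S100A13, which takes part in the unconventional release of FGF1, stood at -0.01 ± 0.14, S100A1, a regulator of calcium release in heart muscle, at -0.88 ± 0.71, S100A5 at -0.27 ± 1.25 and S100A14 at 0.69 ± 1.26 (SE), none of them past the test (adjusted p = 0.966, 0.378, 0.911 and 0.742). S100A5 and S100A14 had mean signals of 3.43 and 3.15, at which the interval of S100A14 ran from -1.77 to 3.15 on the log2 scale. S100A7A, the close copy of S100A7, was not analysed here in H358.

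The S100 genes share their chromosome cluster with genes of the cornified envelope, the epidermal differentiation complex. In H358, 5 of 24 listed genes of that complex were in the authors' deposited table and 4 had an adjusted p, of which 0 passed (HRNR, FLG, THEM4 and TCHH, with log2 fold changes from -0.06 to 0.61). At an unadjusted p of 0.05, 0 of the 4 passed either. With mean signals of 13.8, 9.80, 653 and 10.4, their intervals were wide except for that of THEM4, from -0.13 to 0.28.

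Of 15 annexins and proteins that S100 members bind, 14 were in the authors' deposited table, 7 fell and 1 rose (57.1% called, beside 32.4% of all genes), and the median log2 fold change was -0.36. Of the 14, 7 had a mean signal of 4000 or more, where 48.7% of genes passed as lower, beside 16.8% of all genes. Whether the losses exceed such shares was not tested. ANXA4 fell most, by 1.32 (SE 0.08; adjusted p = 6.03e-63), and EZR, which encodes ezrin, a membrane-to-actin linker, by 0.82 (SE 0.06; adjusted p = 7.43e-40), in the authors' deposited table. AHNAK, a giant scaffold protein held at the membrane by S100A10 and annexin A2, fell by 0.77 (SE 0.10), and MYH9, the heavy chain of non-muscle myosin IIA that S100A4 binds, by 0.52 (SE 0.05). The calcyclin-binding protein gene CACYBP fell by 0.48 (SE 0.07; adjusted p = 3.53e-11), while ANXA6 rose by 0.75 ± 0.09 (SE; adjusted p = 2.06e-14), in the authors' deposited table. Named after its value was seen, ANXA2, whose product holds S100A10 in a tetramer, fell by 0.40 (SE 0.06; adjusted p = 5.10e-11) in the authors' deposited table. ANXA1, the partner of S100A11, stood at 0.00 ± 0.06, with an interval from -0.12 to 0.13. Mean signals of the list ran from 51.5 to 47822.

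**Figure D3:**
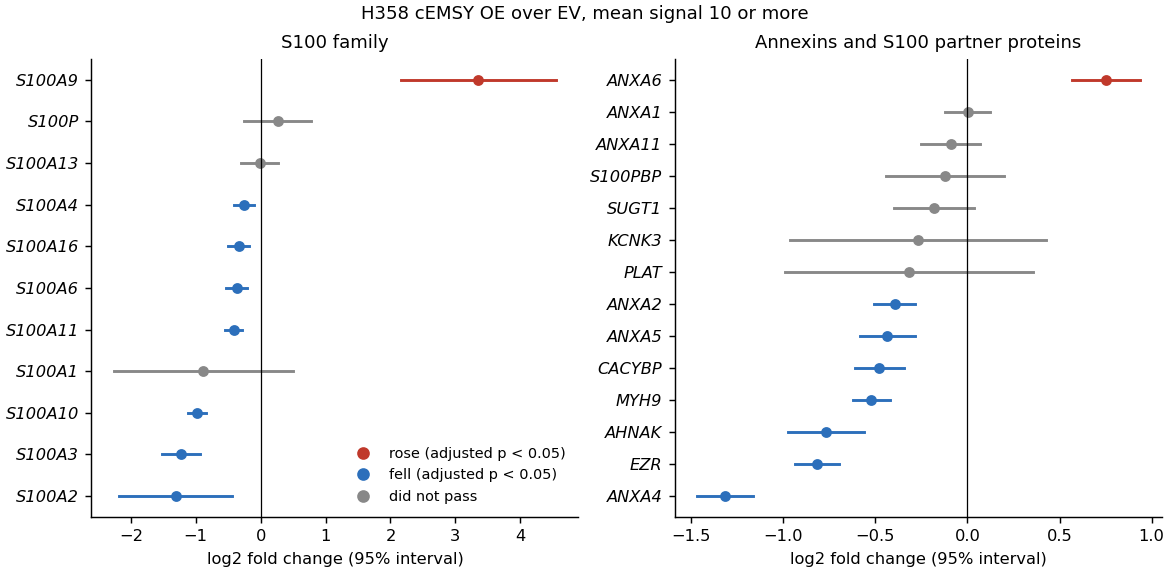
Log2 fold change with its 95% interval in H358, cEMSY OE over EV, from the authors' deposited table, for S100 family genes (left) and annexins and S100 partner proteins (right) with a mean signal of 10 or more. S100A9 stands alone at 3.36 on the left, with 7 genes in blue below 0, and on the right ANXA6 is the 1 red point against 7 blue ones.

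Of 15 receptors and binding proteins, 13 were in the authors' deposited table, 12 had an adjusted p and 4 passed, 2 higher and 2 lower, a share of 33.3% beside 32.4% of all genes. CD44 rose by 0.39 ± 0.07 and the lipoprotein receptor gene SCARB1 by 0.31 ± 0.08 (SE), and CD68 fell by 0.75 (SE 0.13) and ALCAM, a calprotectin-binding adhesion protein also known as CD166, by 0.26 (SE 0.06), in the authors' deposited table. TLR4 stood at 0.29 ± 0.42 and AGER, which encodes RAGE, at 0.38 ± 0.67 (SE; adjusted p = 0.672 and 0.734), with mean signals of 32.4 and 15.7. Their intervals ran from -0.53 to 1.11 and from -0.93 to 1.69. The scavenger receptor gene CD36 stood at 2.86 ± 1.23 (SE; adjusted p = 0.0609), below 0.05 before adjustment, at a mean signal of 7.07 in the authors' deposited table. BSG, the basigin receptor of S100A9, stood at 0.03 ± 0.07 (SE), with an interval from -0.11 to 0.17 in the authors' deposited table.

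In the wider acute-phase list all 3 fibrinogen genes rose, while LCN2 and SERPINA3 fell. Of 31 genes, 21 were in the authors' deposited table, 20 had an adjusted p and 11 passed, 8 higher and 3 lower (55.0%, beside 32.4% of all genes), with a median log2 fold change of 1.29. The fibrinogen genes FGA and FGG rose by 2.93 ± 0.11 and 2.62 ± 0.22 (SE; adjusted p = 2.93e-163 and 4.63e-31), 7.64-fold and 6.16-fold, in the authors' deposited table. CP, which encodes the copper-carrying ferroxidase ceruloplasmin, rose by 2.71 ± 0.08 (SE; adjusted p = 4.04e-278), 6.53-fold. SERPINA1, the gene of alpha-1-antitrypsin, rose by 2.14 ± 0.58 (SE; adjusted p = 0.00121), at a mean signal of 25.1. SERPINA3, the gene of alpha-1-antichymotrypsin, fell by 3.87 (SE 0.30; adjusted p = 9.52e-36) in the authors' deposited table, to 0.0686 of its EV level. The third that fell, named after its value was seen, was the ferritin light chain gene FTL, by 0.23 (SE 0.06). Also named after their values were seen, the third fibrinogen gene FGB rose by 1.58 ± 0.12, the complement genes C3 and CFB by 0.84 ± 0.06 and 0.59 ± 0.08, and the pentraxin gene PTX3 by 2.14 ± 0.34 (SE) in the authors' deposited table. The albumin gene ALB, the 1 of 6 hepatocyte markers in the table, did not pass at a mean signal of 2.50 (2.66 ± 1.90, SE; adjusted p = 0.310), and the hemopexin gene HPX, at 1.98, had no adjusted p.

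Regulators of the acute phase moved both ways. Of 27, 25 were in the authors' deposited table and 15 passed, 10 higher and 5 lower (60.0%, beside 32.4% of all genes), with a median log2 fold change of 0.17. IL6, the cytokine that drives fibrinogen genes in the liver, rose by 2.40 ± 0.22 (SE; adjusted p = 2.28e-26), 5.29-fold, in the authors' deposited table. CEBPD, a transcription factor induced in the acute phase, rose by 1.19 ± 0.14, and IL22RA1, an epithelial cytokine receptor chain, by 0.91 ± 0.34 (SE; adjusted p = 0.0283). OSMR, the oncostatin M receptor gene, rose by 0.79 ± 0.07 (SE; adjusted p = 1.92e-27) in the authors' deposited table. HNF4A, a nuclear receptor of hepatocyte identity, fell by 1.46 (SE 0.19), and the kinase gene JAK1 by 0.83 (SE 0.06), in the authors' deposited table. STAT3, the main transcription factor downstream of IL-6, stood at -0.10 ± 0.09 (SE; adjusted p = 0.484), with an interval from -0.28 to 0.09. Named after their values were seen, NFKBIZ, whose product is a cofactor of NF-kB known to act on LCN2, rose by 0.58 ± 0.12 (SE; adjusted p = 4.44e-06), and the NF-kB subunit gene NFKB1 and the adaptor gene MYD88 fell by 0.73 (SE 0.11) and 0.43 (SE 0.12), in the authors' deposited table.

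**Figure D4:**
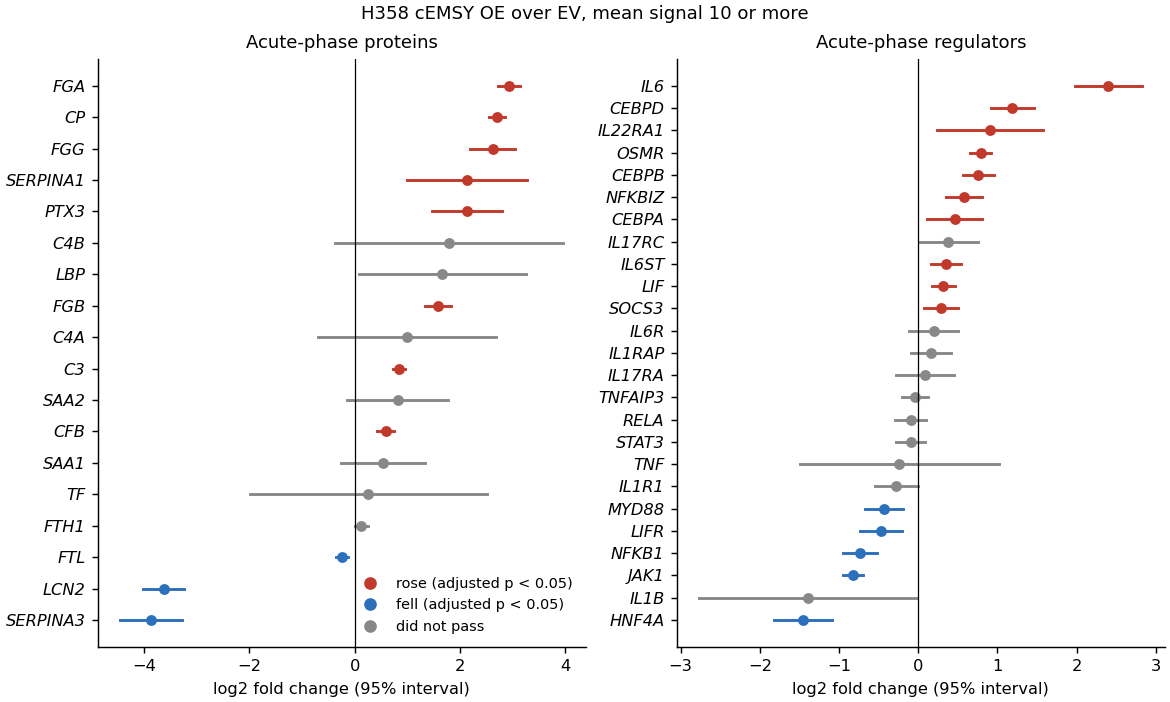
Log2 fold change with its 95% interval in H358, cEMSY OE over EV, from the authors' deposited table, for acute-phase proteins (left) and their regulators (right) with a mean signal of 10 or more. FGA, CP and FGG top the left panel at 2.62 to 2.93 and LCN2 and SERPINA3 close it at -3.63 and -3.87; IL6 tops the right panel at 2.40 and HNF4A closes it at -1.46.

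Other alarmins and epithelial defence genes held 5 genes that fell and 0 that rose. At an unadjusted p of 0.05, CALR was above 0 and DEFB1 below 0 as well. Of 21, 14 were in the authors' deposited table and 13 had an adjusted p, so that 38.5% were called, beside 32.4% of all genes. LGALS3, the gene of galectin-3, fell by 1.27 (SE 0.14) and HMGB2 and HMGB1, chromatin proteins that act as alarmins once released, by 0.88 (SE 0.09) and 0.33 (SE 0.05). The heat shock protein genes HSPA1A and HSP90AA1 fell by 0.57 (SE 0.08) and 0.45 (SE 0.05) in the authors' deposited table. SLPI and PI3, protease inhibitors of the airway lining, stood at 0.04 ± 0.14 and 0.11 ± 0.24 (SE; adjusted p = 0.880 and 0.792), and IL1A, a cytokine alarmin, at -0.29 ± 0.42.

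As a check of the labelled cell type, 10 of 14 epithelial and lung adenocarcinoma markers were in the authors' deposited H358 table, with the keratin genes KRT8, KRT18 and KRT7 at mean signals of 41881, 38482 and 31920. ELF3 and CDH1 had mean signals of 1941 and 1028. KRT19, MUC1, CLDN4, EPCAM and NAPSA had mean signals of 118, 93.2, 75.4, 40.7 and 16.1. The lung lineage genes NKX2-1, SFTPB, SFTPC and SCGB1A1 were not analysed here. Of the 10, 2 rose and 5 fell (70.0% called, beside 32.4% of all genes). At mean signals of 4000 or more, as for KRT8, KRT18 and KRT7, 48.7% of genes passed as lower. KRT19 fell by 3.91 (SE 0.31) and KRT7, KRT8 and KRT18 by 1.05, 0.43 and 0.38 (SE 0.06, 0.06 and 0.07), while CLDN4 and MUC1 rose by 1.86 ± 0.34 and 1.45 ± 0.27 (SE) in the authors' deposited table. CDH1 fell by 0.37 (SE 0.09). ELF3, NAPSA and EPCAM stood at 0.13 ± 0.09, 0.89 ± 0.61 and 0.43 ± 0.42 (SE) and did not pass. The part of these markers in the S100 results was not tested. Of 7 fibroblast markers 4 were in the authors' deposited table and none of the 3 with an adjusted p passed, although at an unadjusted p of 0.05 THY1 did (-1.92 ± 0.84). The other 2 with an adjusted p, LUM and COL1A1, had estimates above 0 (1.96 ± 1.02 and 0.23 ± 0.35, SE). Of 5 endothelial markers 2 were in the authors' deposited table, and CDH5, named after its value was seen, fell by 4.96 (SE 1.89, adjusted p = 0.0293) at a mean signal of 2.75. PECAM1, at a mean signal of 2.52, stood the other way at 2.67 ± 1.66 (SE) and did not pass.

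In LLC1 cells, 3 S100 genes were listed, S100a7a, S100a14 and S100b, and all 3 passed as higher with cEmsy. The mouse annotation (GENCODE M21, mm10) holds 17 protein-coding S100 genes, 14 of them on chromosome 3. The table is restricted to rows the authors had called changed, so the other 14, among them S100a8, S100a9, S100a4 and S100a6, were not analysed here, and their absence says nothing of their level. In limma, 2110 of 2111 tested rows passed an adjusted p of 0.05 (100%), 47.3% higher and 52.6% lower, and the 3 S100 genes are to be read against that selection. Values below are the deposited signal, whose unit the authors do not name; log2 differences are on the log2(signal + 1) scale and understate changes of low genes.

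S100a7a (chromosome 3, 90654017 to 90658669, plus strand, mm10) encodes the mouse counterpart of human psoriasin, an antimicrobial S100 protein of inflamed epithelium. It stood at 8.67, 9.23 and 9.93 in cEmsy OE libraries, against 1.28, 1.25 and 1.08 in EV libraries. The means of 9.28 ± 0.63 and 1.20 ± 0.10 (SD, n = 3 each) differ 7.72-fold. The log2 difference was 2.22 ± 0.09 (SE; limma, adjusted p = 9.85e-09). S100a14 (chromosome 3, 90526856 to 90528837, plus strand), a protein of epithelial cells, stood at 5.21, 5.12 and 6.09 in cEmsy OE libraries, against 2.23, 1.91 and 2.35 in EV libraries. S100a14 rose by 1.03 ± 0.10 (SE, limma, adjusted p = 2.62e-06). S100b (chromosome 10, 76253853 to 76261159, plus strand), best known from glia and melanocytes, stood at 1.09, 1.07 and 0.896 in cEmsy OE libraries, against 0.251, 0.247 and 0.223 in EV libraries. It rose by 0.70 ± 0.07 (SE; limma, adjusted p = 5.22e-06), from low signals in both groups. Its 3′ part overlaps Dip2a on the opposite strand, and whether counting used strand is not given in the sources used here. S100A14 in H358, at 0.69 ± 1.26 (SE) in the authors' deposited table, is too loosely fixed to set beside the mouse gene, and S100B was not analysed here in H358.

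For these genes the RefSeq promoter table (GRCm38.p6, the assembly of mm10) gave a window of 300 bases for S100a7a and S100b, from 250 before to 50 after the RefSeq start, and none for S100a14. They are shown because both genes rose, among rows the authors had called changed, and not for any shared control. Capitals mark motif matches on either strand. S100a7a (chromosome 3, 90654052 to 90654351) and S100b (chromosome 10, 76253586 to 76253885) read 5′ to 3′ on the plus strand:
S100a7a: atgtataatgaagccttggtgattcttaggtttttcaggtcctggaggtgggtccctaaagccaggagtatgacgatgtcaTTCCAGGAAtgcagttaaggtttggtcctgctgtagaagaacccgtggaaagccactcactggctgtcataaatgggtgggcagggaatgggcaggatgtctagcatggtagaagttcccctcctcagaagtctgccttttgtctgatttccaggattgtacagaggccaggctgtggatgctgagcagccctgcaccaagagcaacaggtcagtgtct
S100b: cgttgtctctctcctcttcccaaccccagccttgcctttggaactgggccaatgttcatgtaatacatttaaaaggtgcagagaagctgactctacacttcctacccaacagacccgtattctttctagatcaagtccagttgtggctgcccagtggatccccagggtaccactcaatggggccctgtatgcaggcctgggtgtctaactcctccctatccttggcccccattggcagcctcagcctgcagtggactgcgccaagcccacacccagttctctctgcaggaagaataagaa
The motifs searched on both strands were TATAAA for the basal promoter element, TGANTCA for AP-1, TTNNGNAA for C/EBP, TTCNNNGAA for STAT and the NF-kB consensus; the C/EBP and STAT letters can overlap. The 1 match was TTCCAGGAA in S100a7a, at bases 82 to 90 of the window, which fits the STAT letters. In GENCODE M21, S100a7a starts at 90654017, before this RefSeq window. The whole window and its match thus lie inside the gene as GENCODE M21 places it. Of 32851 mouse promoter windows of that length, 8.30% held the STAT letters, 40.7% the C/EBP letters, 13.6% the basal element, 7.81% the AP-1 letters and 4.51% the NF-kB consensus. A match is a string of letters, not a bound site, and no factor's binding was measured.

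Few other alarmin and acute-phase genes were listed in LLC1. Of the S100 partner list 0 of 15 were listed, and of the acute-phase list 2 of 31, Itih3 and C4b, both below the mean of 0.5 needed for the test. Itih3 stood at 0.648, 0.477 and 0.564 in cEmsy OE libraries, against 0.0693, 0 and 0.0246 in EV libraries. C4b stood at 0.400, 0.465 and 0.405 in cEmsy OE libraries, against 0.111, 0.115 and 0.0950 in EV libraries. Both means were higher with cEmsy, among rows the authors had called changed. Il1rn, the gene of the interleukin-1 receptor antagonist, fell to 0.0435, 0.0464 and 0.0680 in cEmsy OE libraries, against 5.23, 4.92 and 5.09 in EV libraries (log2 difference -2.53, SE 0.08; limma, adjusted p = 2.68e-09). Its receptor gene Il1r1, untested for its low mean, averaged 0.0115 ± 0.0041 in cEmsy OE libraries and 0.354 ± 0.096 in EV libraries (SD, n = 3 each).

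Of 21 other alarmins and defence genes, 4 were listed in LLC1, and 3 fell and 1 rose. Hmgb1 and Hmgb2 fell to 20.3 ± 3.1 and 23.4 ± 1.9 in cEmsy OE libraries, against 52.6 ± 0.36 and 54.3 ± 2.1 in EV libraries (SD, n = 3 each; log2 differences -1.34, SE 0.10, and -1.19, SE 0.07; limma, adjusted p = 4.24e-07 and 1.84e-07). Il33, an alarmin cytokine of epithelia, fell to 0.764, 0.776 and 1.10 in cEmsy OE libraries, against 3.28, 3.85 and 2.80 in EV libraries (limma, adjusted p = 3.54e-06). Lgals9, the gene of galectin-9, rose to 23.6 ± 3.6 in cEmsy OE libraries, against 5.19 ± 0.76 in EV libraries (SD, n = 3 each; limma, adjusted p = 1.72e-07). HMGB1 and HMGB2 were thus lower with the circular RNA in both lines; whether the sizes differ was not tested, since the scales differ. Among receptors, P2rx7, the gene of an ATP-gated channel, fell by 2.37 (SE 0.10) and Cd68 rose by 1.28 ± 0.13 (SE), where CD68 fell in H358; the difference between the lines was not tested. Cd36 and Lrp2 were listed below the mean needed for the test, at means of 0.320 ± 0.058 and 0.0469 ± 0.0099 in cEmsy OE libraries and 0.666 ± 0.010 and 0.140 ± 0.047 in EV libraries (SD, n = 3 each).

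**Figure D5:**
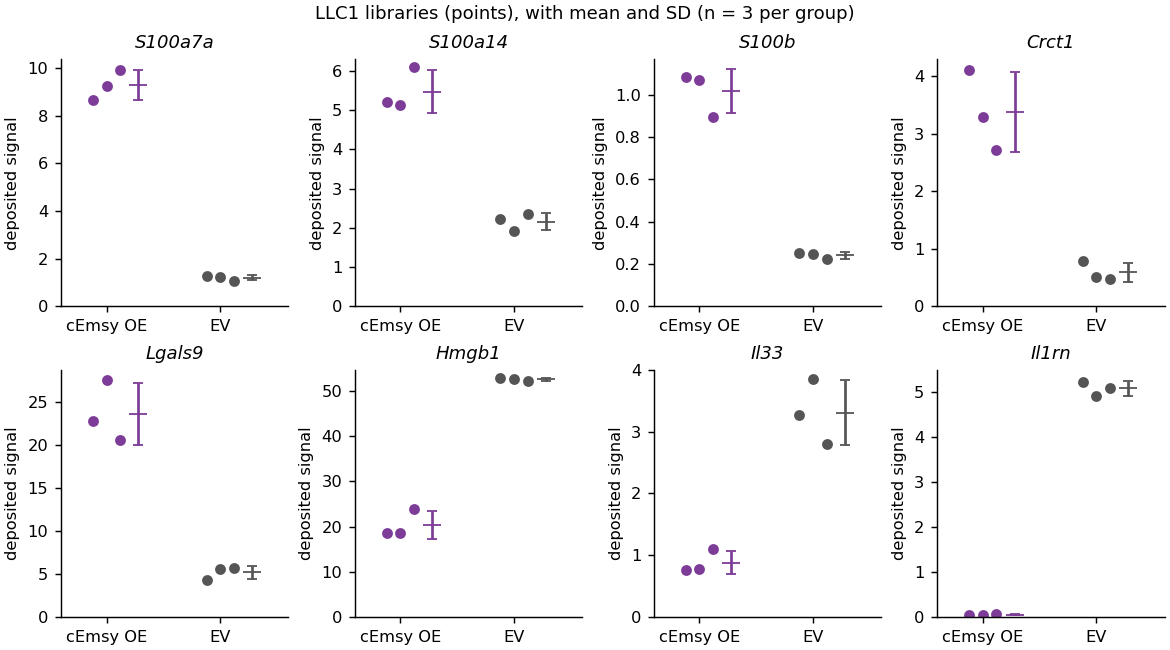
Deposited signal (y, linear from 0) in each LLC1 library, cEmsy OE left and EV right, for 8 genes, with mean and SD (n = 3 per group). The cEmsy OE points lie above all EV points for S100a7a, S100a14, S100b, Crct1 and Lgals9 and below them for Hmgb1, Il33 and Il1rn. All 8 are rows the authors had called changed, so such separation is to be read against that selection.

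Listed squamous and cornified envelope genes moved both ways in LLC1, among rows the authors had called changed. Crct1 rose, while Lce1g fell from 28.7 ± 3.2 in EV libraries to 9.27 ± 1.20 in cEmsy OE libraries (SD, n = 3 each). Krt5 and Krt13, keratins of basal and mucosal squamous epithelium and 2 of the 8 squamous markers, rose by 1.24 ± 0.07 and 0.66 ± 0.09 (SE; limma, adjusted p = 1.49e-07 and 5.69e-05). Krt5 averaged 1.51 ± 0.15 in cEmsy OE libraries and 0.0653 ± 0.0321 in EV libraries (SD, n = 3 each). The airway and lung markers Krt7 and Napsa rose by 1.56 ± 0.08 and 0.77 ± 0.15 (SE). Of 10 neutrophil and monocyte markers and of 5 endothelial ones 0 were listed, and 1 of 7 fibroblast markers, Col1a2, and 1 of 6 hepatocyte markers, Apob, were listed below the mean needed for the test. The part of these genes in the S100 result was not tested.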

How the data were processed

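Per the labels' protocols, ribosomal RNA was removed from total RNA and stranded libraries were made. Per the submitters' processing notes, the tools were STAR, featureCounts, FastQC and MultiQC, and the builds hg19 and mm10, with no roles or versions given. For H358 the authors deposited a mean signal, a log2 fold change with its SE, a statistic (a score, equal to fold change over SE within 0.001) and p-values with their adjusted values, per the file headers, which use DESeq2's column names. An adjusted p was absent for 1193 genes, which got no call. For LLC1 the authors deposited a signal per gene in 6 libraries, of 2509 rows they had called changed; summed signals ran from 28993 to 31659 and depth is unknown. Its control columns carry a group name with no link to single EV libraries.

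H358 calls are the authors' adjusted p-values at 0.05, and intervals are 95%, from the SE and the normal distribution. LLC1 was fitted on the whole table with limma 3.58.1 in R 4.3.3 (mean-variance trend, log2(signal + 1), mean of 0.5 or more, Benjamini-Hochberg adjustment), and tested on simulated data. With 3 against 3 libraries an exact permutation test cannot go below p = 0.1, so limma was used.

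The members and gene lists were chosen with earlier results of these data known. Named genes are the members, all S100 genes, up to 6 genes per list with the largest fold changes past 0.05 at a mean signal of 10 or more, and every listed gene in LLC1; genes named outside this rule, such as receptors, partners, cytokines and markers that did not pass, were chosen after their values were seen. The circular RNA drug panel was not used here. A gene of the regulator list is not reported here.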

Additional observations from a re-analysis of the deposited data

How the results depend on the processing

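Values per library were not analysed here for H358, so no library could be left out there. Over the 123 H358 genes of the lists with an adjusted p, and the 15 LLC1 genes tested again, no direction changed under the alternatives run. In H358 only the centring, by its shift of -0.003, could have changed a direction. The other H358 alternatives reuse the deposited fold changes. Requiring a log2 fold change of 1 left 3 of the members (2 higher, 1 lower), 4 of the S100 family and 1814 of all genes, against 7, 9 and 6211. It ended, by its own construction, the calls of 38 list genes, among them S100A4, S100A6, S100A10, S100A11 and S100A16. A threshold of 0.01 ended the calls of 5: S100A2, IL22RA1, SOCS3, CEBPA and CDH5. Adjustment over every gene with a p-value, a mean signal of 10 or more, and centring on the median fold change (a shift of -0.003) within those same genes of 10 or more left 6 or 7 members and 11 acute-phase genes, 6 where the signal filter dropped S100A8. In LLC1, a mean of 5 or more left 1 S100 gene (S100a7a) of 3 and 852 rows of 2110, since fewer rows were tested. Under the other alternatives, leaving out each library included, all 3 S100 genes passed, as did at least 99.6% of the tested rows. No paired analysis was possible because the LLC1 control columns are not tied to single numbered libraries and H358 came as a finished comparison. The LLC1 members were not analysed here, as none was listed. Low signal goes with wide intervals for S100A8, S100A5 and S100A14.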

Other observations

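On mouse chromosome 3 the S100 genes span 90511034 to 93564643 (mm10), an interval that also holds the epidermal differentiation complex. Of its 75 protein-coding genes 5 were listed in the LLC1 table (6.67%), beside 8.13% of all 21951 protein-coding genes of the annotation, so the interval as a whole did not hold more listed genes. Beside S100a14 and S100a7a these were Crct1, Gm4858 and Lce1g. Crct1, a gene of the cornified envelope region, rose to 4.11, 3.29 and 2.72 in cEmsy OE libraries, against 0.783, 0.517 and 0.483 in EV libraries (limma, adjusted p = 1.95e-06). Gm4858 rose by 2.03 ± 0.08 on the log2(signal + 1) scale (SE; limma, adjusted p = 1.51e-08). Lce1g, a late cornified envelope gene, fell to 9.53, 10.3 and 7.96 in cEmsy OE libraries, against 27.8, 26.0 and 32.2 in EV libraries (limma, adjusted p = 3.58e-07), so the listed genes of the interval did not all move 1 way.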
